A study of Mus musculus with 8 samples.

Results

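Resident Kupffer cells, the macrophages that line the liver sinusoids, were followed here through 10 marker genes: Adgre1, Clec4f, Cd68, Cd5l, Marco, Timd4, Vsig4, Csf1r, Cd163 and Mrc1. The genes were picked by symbol from the liver RNA-Seq table, which held all 10 of them among 21532 genes, and each of the 10 passed the filter on low values (a mean of at least 10 normalized read counts over the 8 mice), as did 15989 genes in all.

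Kupffer cells arise before birth from progenitors that seed the fetal liver, and they renew themselves in place with support from colony-stimulating factor signals. They take up bacteria, old red blood cells, modified lipoproteins and dying cells from the blood of the sinusoids. In obese livers they are known to be joined, and in part replaced, by macrophages that come from blood monocytes. Clec4f, Timd4, Vsig4, Cd5l and Marco are commonly used to tell resident Kupffer cells from other macrophages. Adgre1, Cd68, Csf1r, Cd163 and Mrc1 are also expressed by other cells, such as other macrophages.

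The mice were male db/db animals, obese and diabetic through loss of leptin receptor function. Starting at 8 weeks of age, they received either control or AF1 peptide at 5 mg/kg body weight by injection behind the eye, 2 times per week for 5 weeks. AF1 peptide is a synthetic sequence made from part of estrogen receptor α, with some inner stretches left out. It is joined to a FITC-labelled TAT sequence, which carries peptides into cells. What the control injection contained is not described for these mice. Each group had 4 mice with 1 library each, made from frozen whole liver, so no lean or untreated liver stood beside them. All values below are normalized read counts (the reads of a gene divided by a size factor of the library). In whole liver, fewer Kupffer cells, less RNA per Kupffer cell and a change in other cells that express a marker cannot be told apart.

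One library stood apart. AF1 peptide replicate 1 had a score of -74.2 on principal component 1 (39.3% of the variance over the tested genes), while the other 7 mice lay between -2.33 and 21.8. It was the lowest of the 8 mice in 9 of the 10 markers, against 23.4% of all tested genes. Its depth (35099306 reads) lay within the range of the other libraries (23031880 to 45117528 reads), and its share of mitochondrial reads (20.8%) was the lowest, against 22.4 to 34.3% for control and 34.3 to 37.8% for AF1 peptide replicates 2 to 4. The changes of the markers and of the other gene lists are therefore given with and without it, and the cause of its position was not tested.

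To show the DNA next to which these genes are transcribed, 250 bases before the RefSeq start (GRCm38.p6) were read for the 8 markers in the promoter table used here, and 4 are printed. The 4 were chosen after their values were seen. Cd5l and Vsig4 are shown as the markers in which AF1 peptide replicate 1 was lowest relative to the other treated mice, and Clec4f and Cd163 as the 2 markers for which the other 3 AF1 peptide-treated mice lay above every control mouse. Capitals mark 6-base motifs on either strand: GAGGAA (a core bound by PU.1 and other ETS factors), TGCTGA (part of the MAF recognition site) and AGGTCA (the repeat unit of nuclear receptor sites). Matches on the opposite strand are shown as their reverse complement. The windows are chr3:87357631-87357880 (plus strand) for Cd5l, chr6:83656117-83656366 (minus strand) for Clec4f, chrX:96293439-96293688 (minus strand) for Vsig4 and chr6:124304401-124304650 (plus strand) for Cd163.
Cd5l: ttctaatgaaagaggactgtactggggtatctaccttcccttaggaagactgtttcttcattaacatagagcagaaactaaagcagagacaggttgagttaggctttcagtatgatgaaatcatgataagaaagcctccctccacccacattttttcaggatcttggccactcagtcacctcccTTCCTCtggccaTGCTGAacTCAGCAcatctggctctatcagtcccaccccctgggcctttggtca
Clec4f: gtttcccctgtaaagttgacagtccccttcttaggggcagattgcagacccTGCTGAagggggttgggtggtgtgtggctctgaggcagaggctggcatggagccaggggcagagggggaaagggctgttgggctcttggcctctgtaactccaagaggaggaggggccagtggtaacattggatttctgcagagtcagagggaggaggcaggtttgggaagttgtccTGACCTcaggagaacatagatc
Vsig4: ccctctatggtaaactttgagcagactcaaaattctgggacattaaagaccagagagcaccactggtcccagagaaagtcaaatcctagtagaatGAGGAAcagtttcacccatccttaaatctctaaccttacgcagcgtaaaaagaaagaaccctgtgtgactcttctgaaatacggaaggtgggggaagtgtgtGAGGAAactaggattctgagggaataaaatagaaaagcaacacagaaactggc
Cd163: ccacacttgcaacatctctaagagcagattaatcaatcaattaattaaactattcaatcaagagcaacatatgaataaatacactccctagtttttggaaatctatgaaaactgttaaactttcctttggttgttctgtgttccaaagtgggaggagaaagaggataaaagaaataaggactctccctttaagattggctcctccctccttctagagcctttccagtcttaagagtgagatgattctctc
The Cd5l window held GAGGAA once, 66 bases before the start, and TGCTGA on both strands, 54 and 46 bases before it. Clec4f had 1 TGCTGA and, 22 bases before the start, 1 AGGTCA. Vsig4 had GAGGAA at 155 and 53 bases before the start, and none of these letters stood in the Cd163 window. GAGGAA occurred in 5 of the 8 marker windows and in 23.1% of 27025 windows of the same length, TGCTGA in 3 of 8 and 15.8%, and AGGTCA in 2 of 8 and 13.8%. The TATA box letters TATAAA occurred in 0 of 8 and in 13% of all windows. These matches describe the letters only, and no binding was measured in these livers.

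Per kilobase of exon (GENCODE M21), the markers spanned a wide range of levels in control livers. Clec4f, a C-type lectin that binds glycans, and Cd5l, a secreted scavenger protein that supports macrophage survival, stood at the top with 893 ± 106 and 878 ± 139 normalized counts per kilobase (SD, n = 4). Cd68, a lysosomal membrane protein of phagocytes, followed with 308 ± 79.3, next to Vsig4, the complement receptor of the immunoglobulin family, with 306 ± 61.2 normalized counts per kilobase. Csf1r, the receptor for the growth factors CSF1 and IL-34, had 183 ± 19.8 and Mrc1, the mannose receptor, 144 ± 33.96 on the same scale. The scavenger receptor Marco (64.9 ± 22.4), the phosphatidylserine receptor Timd4 (32.0 ± 8.41), the hemoglobin scavenger receptor Cd163 (24.4 ± 5.73) and Adgre1, which encodes the F4/80 antigen (21.1 ± 5.78), were the lowest per kilobase.

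Some neighbours in this order did not differ beyond their spread. Cd68 was above Vsig4 in only 4 of the 8 mice. Clec4f was above Cd5l in 7 of 8 mice, Csf1r above Mrc1 in 7, Timd4 above Cd163 in 6 and Cd163 above Adgre1 in 6, and the ranges of each of these pairs overlapped in control mice. By contrast, Cd5l was above Cd68, Vsig4 above Csf1r, Mrc1 above Marco and Marco above Timd4 in 8 of 8 mice. Each of the 10 markers had at least 25 reads in every mouse.

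**Figure D1:**
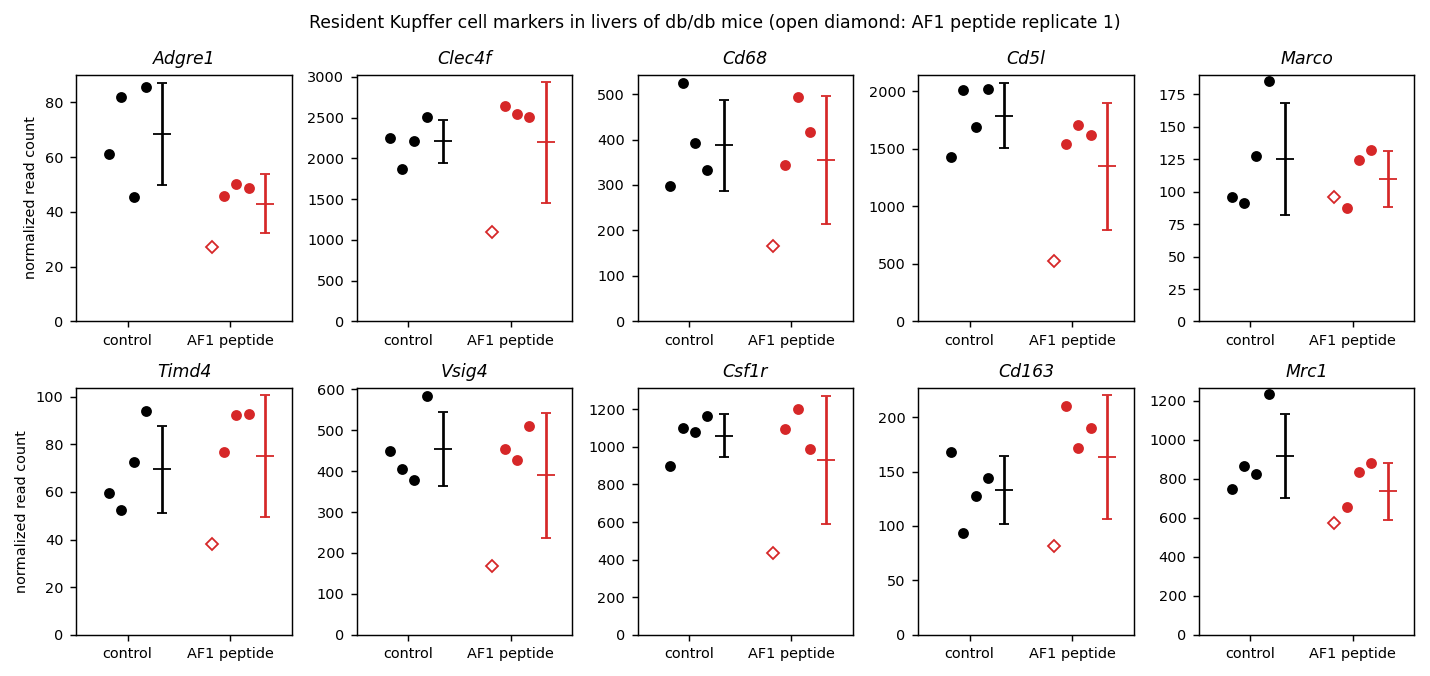
Normalized read count of each of the 10 Kupffer cell markers in every mouse, with control mice in black and AF1 peptide-treated mice in red. Bars are the mean ± SD of 4 mice. The open diamond is AF1 peptide replicate 1, the lowest mouse in each panel but Marco, and no marker separated all 4 mice of one group from all 4 of the other.

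Adgre1 was the marker with the largest decrease in AF1 peptide-treated livers and the only 1 of the 10 called lower. Its normalized counts in control mice 1 to 4 were 61.0, 81.7, 45.4 and 85.4, and in AF1 peptide-treated mice 1 to 4 they were 27.1, 45.7, 50.3 and 48.7. The AF1 peptide-treated mice lay below 3 of the 4 control mice, and the groups overlapped through control replicate 3, the lowest control. The means were 68.4 ± 18.7 and 42.9 ± 10.7 (SD, n = 4), a log2 fold change of -0.66 (SE 0.27, 95% confidence interval -1.25 to -0.06). limma, the linear model fitted to log2(normalized count + 1) of all tested genes, gave an unadjusted p value of 0.0339 and a Benjamini-Hochberg adjusted p value of 0.763. With an unadjusted p value under 0.05 and a fold change over 1.3 as the call, 1 of the 10 markers was called lower, where 1.9% of all tested genes were, and 0 of 10 were called higher, where 1.79% were. With Benjamini-Hochberg adjustment at 0.05, limma called 0 genes of the table (990 had an unadjusted p under 0.05), edgeR 0 and DESeq2 3.

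The Adgre1 call changed with single mice, and its reads were few (25 to 102 per mouse). Without AF1 peptide replicate 1 the log2 fold change was -0.45 (SE 0.23) with an unadjusted limma p of 0.0768. The call was also lost without control replicate 2 (-0.56, a limma p of 0.0931) or control replicate 4 (-0.54, a limma p of 0.0995). A two-sided exact permutation test of the 4 against 4 mice gave p = 0.114. edgeR (p = 0.0313) and DESeq2 (p = 0.0224) on the recovered reads gave unadjusted p values under the threshold, and limma with the gene's own variance did not (p = 0.0655).

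The scavenger receptors and related uptake proteins had log2 fold changes of both signs. Cd163 takes up hemoglobin bound to haptoglobin. Its normalized counts were 168, 93.6, 128 and 144 in control mice and 81.2, 210.0, 171 and 190.1 in AF1 peptide-treated mice. AF1 peptide replicate 1 was the lowest of all 8 mice, while the other 3 lay above every control mouse. Over all 8 mice the log2 fold change was 0.23 (SE 0.29, interval -0.42 to 0.88), within the spread. Without AF1 peptide replicate 1 it was 0.54 (SE 0.19, interval 0.12 to 0.95), with a limma p of 0.0155 and a Benjamini-Hochberg adjusted p of 0.473 in limma. In RefSeq GRCm38.p6 the long noncoding RNA gene Gm52877 overlaps 37% of the Cd163 span and has a row of its own in the table. Without that mouse, Cd163 was the 1 marker of 10 called higher, where 2.86% of all tested genes were, and 0 of 10 were called lower, where 3.07% were. Leaving out the lowest mouse could only raise its log2 fold change. The exact permutation test of 4 against 3 mice gave p = 0.0571, which is the smallest two-sided value that this number of mice allows, so it cannot reach 0.05.

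Cd5l opposes apoptosis in macrophages and circulates bound to IgM. It was measured at 1431, 2009, 1691 and 2019.9 normalized counts in control mice and at 526, 1543, 1707 and 1621 in AF1 peptide-treated mice. AF1 peptide replicate 1 had 0.325 of the median of the other 3 treated mice, the largest gap of the 10 markers, and the other 3 mice lay within the control range. Over 8 mice the log2 fold change was -0.53 (SE 0.33) and did not pass the test (exact permutation p = 0.229), and it was -0.13 (SE 0.13) without that mouse.

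Marco binds bacteria and oxidized lipoproteins. It had 95.6, 91.6, 128 and 185 normalized counts in control mice and 96.1, 87.7, 124 and 132 in treated mice. Here AF1 peptide replicate 1 was not the lowest, since AF1 peptide replicate 2 was, and control replicate 4 was the highest. Its log2 fold change was -0.14 (interval -0.67 to 0.38) over 8 mice and -0.09 (interval -0.62 to 0.45) without AF1 peptide replicate 1.

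Mrc1 clears glycoproteins with mannose ends. Its counts were 747, 866, 822 and 1233 in control mice and 573, 654, 833 and 879.8 in AF1 peptide-treated mice. Replicates 1 and 2 of the treated group lay below every control mouse and the other 2 within the control range. This gave a log2 fold change of -0.31 (SE 0.18, interval -0.71 to 0.09, exact permutation p = 0.257), and without AF1 peptide replicate 1 it was -0.20 (SE 0.17).

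Clec4f, the marker most restricted to mouse Kupffer cells, had 2245, 1865, 2212 and 2506 normalized counts in control mice. With AF1 peptide it had 1091, 2645, 2539 and 2509. The 3 treated mice other than replicate 1 lay above every control mouse, the highest of which (2506) was close to the lowest of them (2509). The log2 fold change was thus -0.08 (SE 0.26) over 8 mice and 0.22 (SE 0.11, interval -0.01 to 0.46) without replicate 1. The second value is a fold change of 1.168 with a limma p of 0.0609, and Clec4f was not called in either fit. Clec4f and Cd163 were the 2 of 10 markers whose groups did not overlap without AF1 peptide replicate 1, both higher. That mouse was the lowest of the 8 in both, so leaving it out could only raise the treated group. Of the 15989 tested genes, 1464 had no overlap in either direction without that mouse, and 4.35% were higher without overlap. Most tested genes did not have their lowest value in that mouse, so this share is not a like comparison. With all 8 mice, 0 of 10 markers and 3.9% of all tested genes had groups that did not overlap.

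Timd4 binds phosphatidylserine on dying cells and marks Kupffer cells that have been resident for long. It had 59.3, 52.2, 72.4 and 93.8 normalized counts in control mice and 38.3, 76.7, 92.3 and 92.8 in AF1 peptide-treated mice. Replicate 1 of the treated group was the lowest, and the other 3 lay inside the control range. The log2 fold change was 0.06 (interval -0.60 to 0.73), and it was -0.03 with all libraries scaled to equal totals. Without replicate 1 it was 0.35 (SE 0.21, interval -0.11 to 0.82), with an exact permutation p = 0.229.

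Vsig4, which binds complement C3 fragments and captures bacteria from the blood, had 449.9, 405, 378 and 583 normalized counts in control mice. In treated mice it had 167, 453, 428 and 512, so that replicate 1 was far below and the other 3 within the control range. Its log2 fold change was -0.32 (SE 0.31) over 8 mice and 0.05 (SE 0.15) without replicate 1.

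Csf1r, on whose signal macrophage survival depends, had 897, 1100.0, 1077 and 1162 normalized counts in control mice and 433, 1094, 1204 and 987 in treated mice. Replicate 1 again lay below every control mouse and replicate 3 above every one. The log2 fold change was -0.28 (SE 0.28), and without replicate 1 it was 0.05 (SE 0.11). In the reference annotation (GENCODE M21) 15.1% of the exonic bases of Csf1r overlap Hmgxb3 on the opposite strand. Use of strand in counting is not given in the sources used here, and without it the reads of these 2 genes cannot be told apart there.

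Cd68 had 298, 525, 392 and 333 normalized counts in control mice and 166, 343, 494 and 417 in AF1 peptide-treated mice. Its control mice alone spanned a range that held all treated mice but replicate 1. The log2 fold change of -0.20 (interval -0.88 to 0.48) turned to 0.13 (interval -0.28 to 0.54) without that mouse.

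Counted over all 10 markers, 8 were lower and 2 higher in AF1 peptide-treated livers (9 and 1 with all libraries scaled to equal totals, where Timd4 changes sign), with a median log2 fold change of -0.24, where the median of all tested genes was -0.01 and 51.8% of them were lower. Without AF1 peptide replicate 1, 4 markers were lower and 6 higher, with a median of 0.05 against -0.00 for all tested genes. That mouse had between 0.325 (Cd5l) and 0.773 (Marco) of the median of the other treated mice. Summed over the 10 genes, it had 3199 normalized counts, against 6451 to 8345 in control mice and 7152 to 7643 in the other treated mice. The sums of treated mice 2 to 4 thus lay inside the control range, and 1 mouse lay below it.

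**Figure D2:**
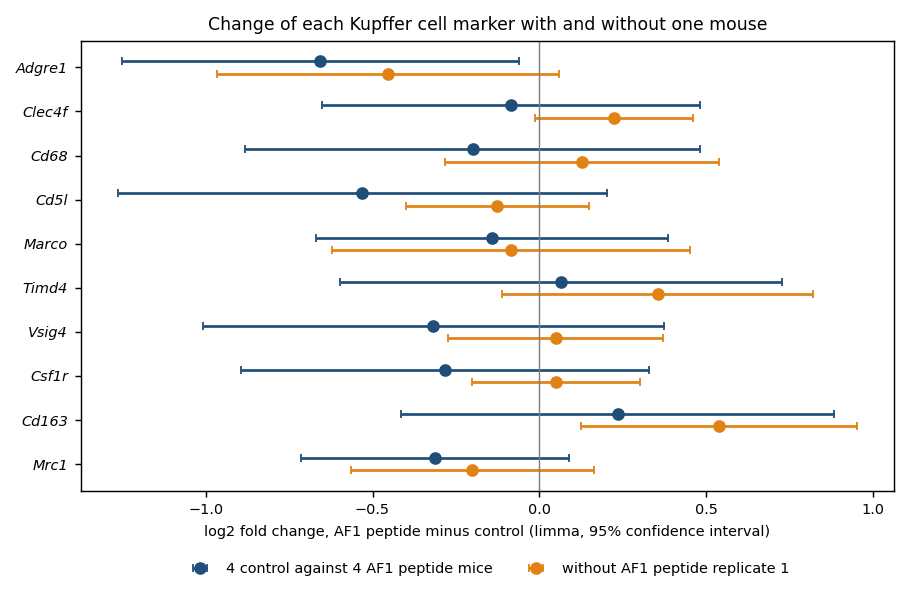
Log2 fold change of each marker (AF1 peptide minus control) with its 95% confidence interval from limma, with all 8 mice in blue and without AF1 peptide replicate 1 in orange. The intervals that leave out 0 are those of Adgre1 with 8 mice (-1.25 to -0.06) and of Cd163 without that mouse (0.12 to 0.95).

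Whether the markers moved by unequal amounts was described within each mouse, where a change in the number of macrophages cancels out if it touches all markers alike. The 16 general macrophage genes, such as Lyz2, Spi1, Ctss and Tyrobp, gave the reference level as their mean log2 value. Relative to it, Adgre1 was lower by a log2 difference of -0.46 in treated mice (-0.51 without replicate 1), Cd5l by -0.34 (-0.18), and Cd163 was higher by 0.43 (0.48). The groups overlapped in each of the 10 markers on this relative scale, with and without replicate 1. On this scale Clec4f had a log2 difference of 0.11 (0.17 without replicate 1), Timd4 0.26 (0.30), Mrc1 -0.12 (-0.26), Vsig4 -0.13 (-0.01) and Csf1r -0.09 (-0.01). Marco (0.05, and -0.14 without replicate 1) and Cd68 (-0.01, and 0.07) changed sign when that mouse was left out.

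Of the 45 ratios between pairs of markers, 2 had groups that did not overlap, where 3.84% of all pairs of tested genes did not, so the count was near that background. Pairs that share a gene are not independent of each other. There were 36.3, 87.4, 35.6 and 59.3 Adgre1 counts per 100 Cd163 counts in control mice, against 33.3, 21.7, 29.3 and 25.6 in AF1 peptide-treated mice. Every treated mouse, replicate 1 included, was thus below every control mouse, with a gap between 33.3 and 35.6 that was small beside the control range. The other pair was Cd5l and Timd4, with 2411, 3849, 2334 and 2154 Cd5l counts per 100 Timd4 counts in control mice and 1376, 2012, 1850.0 and 1747 in treated mice. Without replicate 1 the number of such pairs was 7, where 9.01% of all pairs of tested genes did not overlap. Adgre1 was in 4 of the 7 pairs, and Timd4 was also in 4.

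**Figure D3:**
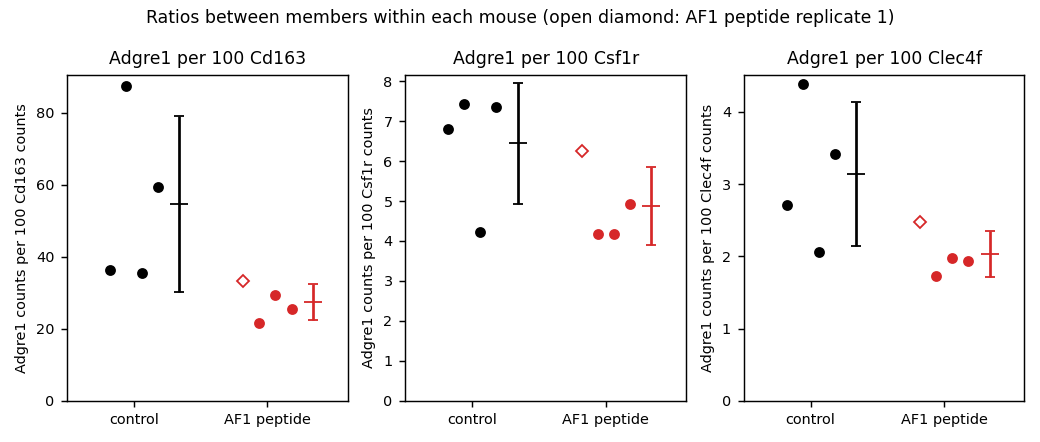
Adgre1 counts per 100 counts of Cd163, Csf1r or Clec4f in every mouse, with control in black, AF1 peptide in red, bars for the mean ± SD of 4 mice and an open diamond for AF1 peptide replicate 1. Treated mice lie below every control mouse for Cd163 (21.7 to 33.3 against 35.6 to 87.4), and the groups overlap for Csf1r and Clec4f.

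A wider set of Kupffer cell genes was counted beside the 10 markers. Of 20 further genes, which include the complement C1q chains, the iron exporter Slc40a1 and the lectin Clec1b, 18 were lower and 2 higher, with 0 called in either direction and a median log2 fold change of -0.23. Without AF1 peptide replicate 1, 11 were lower and 9 higher, again with 0 called and a median of -0.02. That mouse was the lowest of 8 in 17 of these 20 genes, and its sum was 9696 normalized counts, against 12107 to 14321 in control mice and 12856 to 13303 in the other treated mice.

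Hmox1, the heme oxygenase that breaks down heme from old red blood cells, had the smallest limma p value (0.0668) of the further Kupffer cell genes. Control mice had 381, 601, 476 and 622 normalized counts of it and treated mice 269.7, 367, 486 and 435, a log2 fold change of -0.42 (SE 0.21, exact permutation p = 0.143), which was -0.26 without replicate 1. Fabp7, a fatty acid binding protein, had a log2 fold change of -0.77 (SE 0.40), which was -0.36 without replicate 1. Nr1h3, which encodes the sterol receptor LXRα and is also expressed by hepatocytes, was the most abundant gene of the list. It had 2446, 2474, 2298 and 2374 normalized counts in control mice and 3316, 2524, 2485 and 2565 in treated mice. Its groups did not overlap, as in 3.9% of all tested genes, which gave the smallest possible exact permutation p (0.0286). Replicate 1 was here the highest, and the log2 fold change of 0.17 had a limma p of 0.141 and was 0.07 without replicate 1.

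Among the 16 general macrophage genes, 13 were lower and 3 higher, 0 were called, and the median log2 fold change was -0.19. Without replicate 1, 7 were lower and 9 higher, with a median of 0.02 and 1 gene, not reported here, called lower. Lyz2, the lysozyme of myeloid cells, had a log2 fold change of -0.57 (SE 0.29, exact permutation p = 0.229), Irf8, a factor for the monocyte lineage, 0.30 (SE 0.18) and Mertk, a receptor for dying cells, 0.04. With that mouse left out they were -0.28, 0.38 and 0.03.

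The signals that maintain Kupffer cells were measured in the same livers. Of 10 growth and niche genes, 6 were lower and 4 higher, and without replicate 1 this turned to 3 lower and 7 higher (median log2 fold change -0.04, and 0.07 without that mouse), with 0 called in either fit. Il34, a ligand of Csf1r, had 104, 109, 106 and 108 normalized counts in control mice and 111, 149.8, 115 and 139.6 in treated mice. The groups did not overlap (exact permutation p = 0.0286, the smallest two-sided value that 4 against 4 mice allow). The log2 fold change of 0.26 (SE 0.14) had a limma p of 0.0965. Without replicate 1 it was 0.33 (SE 0.14) with a limma p of 0.0443, and at a fold change of 1.25 it was not called. Dll4, a Notch ligand of sinusoidal endothelium, had a log2 fold change of 0.29 (SE 0.18) and Csf2ra, a receptor chain for GM-CSF, -0.16, which became 0.19 and 0.17 without replicate 1.

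Markers of other liver cells were counted and summed in the same samples. Of the 8 markers of recruited monocytes and lipid-associated macrophages, 7 were lower and 1 higher, with 0 called and a median log2 fold change of -0.17. AF1 peptide replicate 1 was the lowest mouse in 7 of these 8, and its sum was 48.4% of the control mean, against 71.8 to 141% in the other 7 mice. Without it the median was 0.20, with 2 lower and 6 higher. Ly6c2, a monocyte surface antigen, was then the 1 called gene (lower, log2 fold change -1.21, a limma p of 0.04999, Benjamini-Hochberg adjusted p in limma 0.497). Its reads were very few (1 to 23 per mouse), with 1.83 normalized counts in AF1 peptide replicate 2, and with all 8 mice its limma p was 0.0793. In AF1 peptide replicate 1 the sum of the 10 Kupffer cell markers was 44.4% of the control mean and that of hepatocyte markers 70.4%. It was 84.9% for sinusoidal endothelial, 67.8% for stellate cell, 31.9% for neutrophil, 38.6% for B cell and 45.4% for red blood cell markers. For biliary markers it was 80.8%, for dendritic cell markers 88.3% and for T and NK cell markers 133%. Such sums follow the most abundant genes of each list. By gene, that library was the lowest of 8 in 3 of 7 hepatocyte, 3 of 7 sinusoidal endothelial and 4 of 7 stellate cell genes. The same held for 12 of 16 general macrophage genes, whose sum was 80.9% of the control mean. It held for 2 of 3 neutrophil, 3 of 3 B cell and 2 of 5 red blood cell genes. For T and NK cell genes this was 2 of 4, for dendritic cell genes 1 of 4 and for biliary genes 0 of 4.

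The sums of AF1 peptide replicates 2 to 4 were 99.2 to 106% of the control mean for the 10 Kupffer cell markers, and 84.3 to 102% for hepatocyte markers. Markers of both cell types were present in every library, with at least 5979 normalized counts for each hepatocyte marker and at least 124 for each sinusoidal endothelial marker. Of the other cell lists, 1 gene was called with all 8 mice, Dcn, a matrix proteoglycan of stellate cells (lower, log2 fold change -0.42, a limma p of 0.0388, Benjamini-Hochberg adjusted p in limma 0.763). That call was lost without control replicate 1 (a limma p of 0.0802), 2 (0.102) or 4 (0.0788) or AF1 peptide replicate 2 (0.105), and its log2 fold change was -0.25 without the last. Without AF1 peptide replicate 1, Tat, a hepatocyte enzyme of tyrosine breakdown, was also called lower (-0.74, a limma p of 0.0286). Among the remaining lists, 0 genes were called with or without replicate 1. Their median log2 fold changes were -0.09 for 7 sinusoidal endothelial genes (-0.00 without replicate 1), -0.18 for 3 neutrophil genes (0.16), -0.42 for 3 B cell genes (0.05), 0.10 for 4 T and NK cell genes (0.04), 0.16 for 4 dendritic cell genes (0.32), 0.09 for 4 biliary genes (0.17) and -0.23 for 5 red blood cell genes (-0.18). The median of the 7 hepatocyte genes turned from 0.03 to -0.11 without replicate 1, with 7 of 7 then lower, and that of the 7 stellate cell genes went from 0.02 to 0.13. The part of cell makeup in the marker values was not tested beyond these sums.

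**Figure D4:**
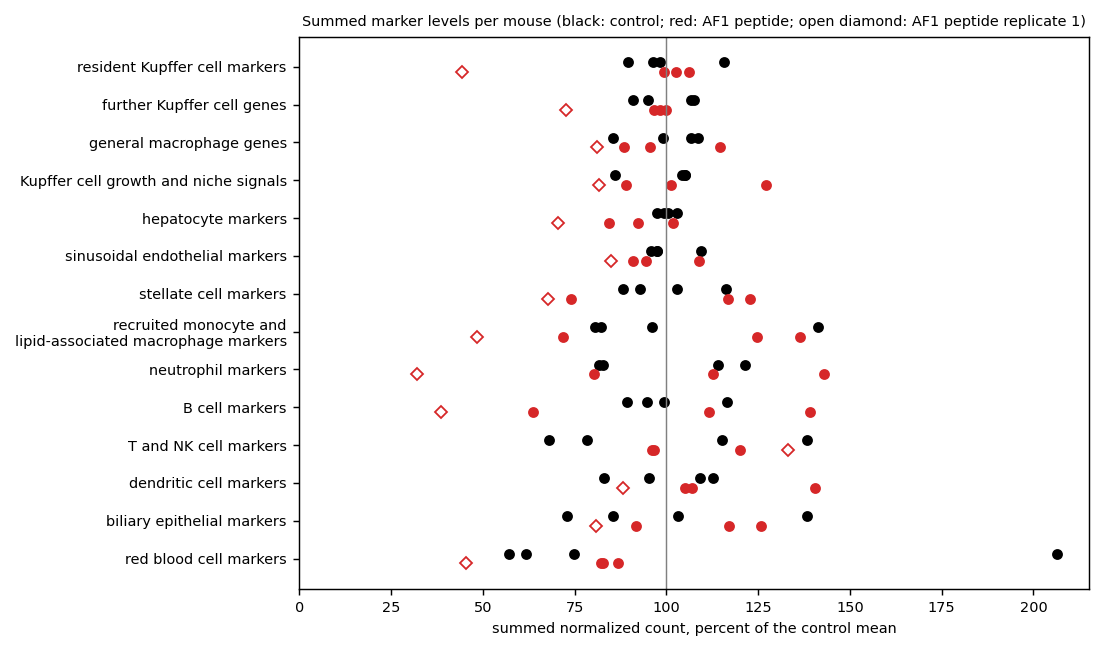
Summed normalized counts of each marker list per mouse, as percent of the control mean, with control mice in black, AF1 peptide-treated mice in red and AF1 peptide replicate 1 as an open diamond. For the 10 resident Kupffer cell markers that mouse lies at 44.4% and the other 7 between 89.5 and 116%.

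The genes whose profile over the 8 mice was nearest to the mean profile of the 10 markers were found by the root mean square difference of centred log2 values, among 12433 other genes with a mean of at least 50. They were Cep170 (0.0989), Sorl1 (0.104), Clec1b (0.105), Nlrp12 (0.108) and Acaa1b (0.109). All 5 had their lowest value in AF1 peptide replicate 1. The mean profile of the markers is itself lowest there, so this follows largely from how the 5 were picked. Clec1b is the 1 of the 5 in the list of further Kupffer cell genes. The markers themselves lay at 0.142 (Clec4f) to 0.350 (Cd163) from their own mean profile, with Csf1r at 0.143 and Vsig4 at 0.172.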

How the data were processed

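Stranded mRNA libraries were made from liver RNA of 8 male db/db mice (4 control, 4 AF1 peptide). Trim Galore 0.6.7, HISAT2 and SAMtools 1.17 served the authors for trimming, alignment and sorting, and GenomicAlignments for read counts per gene. The submitters' processing notes name the genome build mm39, while the annotation, the use of strand and the handling of multi-gene reads are not given in the sources used here. The authors deposited a table of normalized read counts, which is a signal per gene equal to whole reads over 1 size factor per library (100% of 172256 values came out whole within 0.1 read). Replicates were not pooled, and no library was a duplicate of another in its group by a chi-square statistic of its reads. Libraries of different groups were not compared in this way.

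Groups and replicate numbers came from the sample labels. The log2(normalized count + 1) of the 15989 genes with a mean of at least 10 was tested with limma 3.58.1 (R 4.3.3, variances following the intensity trend), tested first on simulated counts. A call was an unadjusted p value under 0.05 with more than 1.3-fold change, and Benjamini-Hochberg adjusted values stand beside it. Exact permutation tests used scipy 1.17.1. Fold changes on this scale understate those of low genes. The 10 markers, the other gene lists and the tests were chosen with earlier results of these data known. Named genes are the 10 markers, of each list the 2 genes with the smallest p value and the most abundant one, and the 5 nearest profiles. Lists of other cell types are given by counts and sums, with genes named only where called. The result of 1 general macrophage gene is not reported here. Depth was 23031880 to 45117528 reads per mouse and 25 to 3082 reads per marker and mouse, and the standard errors of the markers cover the spread between mice as well as counting error.

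Symbols were matched to RefSeq GRCm38.p6, which names 97.59% of them, and exon lengths and overlaps came from GENCODE M21, both of another build than the table, so no coordinates were carried over. Promoter windows hold 250 bases before the RefSeq start. Alternatives were other filters and pseudocounts, TMM factors, equal totals, no intensity trend, each gene's own variance, no fold threshold, DESeq2 1.42.0 and edgeR 4.0.16 on recovered whole reads, the replicate number as a block, and each mouse left out in turn.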

Additional observations from a re-analysis of the deposited data

Results flagged for a closer look

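Dixon's test for 1 value far from the rest was run on 62 groups of 4 mice, and 13 had a gap above the critical share of 0.829 of the group's range, on the log2 scale for genes and sums. Chance flags about 1 in 20 groups, or 3.1 of 62, and these groups are not independent, since they come from the same 8 libraries.

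In 10 of the 13, AF1 peptide replicate 1 was the lowest treated mouse. Among the Kupffer cell markers this held for Clec4f (gap 0.94 of the range), Cd5l (0.914), Adgre1 (0.844) and Vsig4 (0.841), and for the sum of the 10 markers (0.924). It also held for the sum of the 20 further Kupffer cell genes (0.892), for the sum of red blood cell markers (0.915) and for Sorl1 (0.955), Acaa1b (0.899) and Nlrp12 (0.844), which had been picked for profiles near that of the markers. The flags of Sorl1, Acaa1b and Nlrp12 follow largely from that choice, and the sum of the 10 markers holds the same genes again.

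In the control group, replicate 1 had the lowest sum of the growth and niche genes of Kupffer cells (gap 0.954 of the range) and the highest number of reads (0.857), and replicate 4 had the highest sum of sinusoidal endothelial markers (0.867). The source of these gaps was not tested.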

How the results depend on the processing

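The limits of these values lie in 4 mice per group and in AF1 peptide replicate 1. Adgre1 stayed lower in each alternative (-0.84 to -0.45 with 1 mouse left out), and its p value missed 0.05 with its own variance and in the exact permutation test (log2 fold change -0.66 in both). Markers called lower numbered 1, but 0 with each gene's own variance, 2 with the replicate block (Adgre1 and Cd5l), and 0 to 1 with 1 mouse left out. Markers called higher numbered 0, and 0 to 1 with 1 mouse left out. Markers whose groups did not overlap numbered 0, and 0 to 2 with 1 mouse left out, against 623 tested genes (835 to 1464). With 1 mouse left out, log2 fold changes ranged from -0.20 to 0.22 for Clec4f, -0.39 to 0.13 for Cd68, -0.27 to 0.064 for Marco, -0.064 to 0.35 for Timd4, -0.49 to 0.048 for Vsig4, -0.44 to 0.050 for Csf1r, 0.076 to 0.54 for Cd163, -0.35 to 0.067 for Clec1b, -0.31 to 0.051 for Acaa1b, -0.061 to 0.13 for Mertk and -0.41 to 0.17 for Csf2ra. Timd4 (-0.027) and Mertk (-0.052) also changed sign with equal totals, which moved the median of all tested genes from -0.01 to -0.10 and left 9 markers lower and 1 higher, with 8 of 10 below that median as before. Genes called higher were 286, and 435 without a filter, 122 with equal totals, 506 without a fold threshold and 198 to 457 with 1 mouse left out. Genes called lower were 304, and 459, 602 and 484 under the same 3 settings, 197 with each gene's own variance and 173 to 491 with 1 mouse left out. Equal totals changed the share of higher calls from 48.5% to 16.9%. The labels give no link beyond that number between mice with the same replicate number, and do not say whether anything else was shared. Correlations of their deviations were -0.064 to 0.235 over 4 pairs (mean 0.103), against a mean of -0.0342 for other pairs. With the replicate block in limma, the unadjusted p values of Cd5l (log2 fold change -0.53, a p of 0.0382) and Mrc1 (-0.31, a p of 0.0237) were under 0.05, as were those of Hmox1 (0.0154), Fabp7 (0.0146) and Lyz2 (0.0472), and that of Dcn was not (0.0518). Why these values moved was not tested.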
